A study of Mus musculus with 6 samples.

Results

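The CCN genes and the genes controlled by the transcriptional coactivators YAP and TAZ were followed through a 24-hour exposure of mouse lung fibroblasts to DKK1. The group holds 10 genes, taken by name and matched through their Ensembl identifiers, among 45706 genes in the deposited table. They are the CCN genes Ccn1, Ccn2, Ccn3, Ccn4 and Ccn5, the YAP-TAZ target genes Ankrd1, Amotl2 and Lats2, and the genes of the coactivators themselves, Yap1 and Wwtr1 (which encodes TAZ). RNA was sequenced from primary fibroblasts of wild-type mouse lung, grown out of collagenase- and trypsin-digested tissue in medium with fetal serum. The 3 control samples and the 3 samples given recombinant mouse DKK1 at 30 ng/ml share this genotype and culture. Strain, age and sex of the mice, and whether the numbered samples came from separate animals, are not given in the sources used here. The p-values below therefore measure the spread between these samples, which may be technical. Where samples of the same number are paired, they measure only the spread left after differences between numbers are removed.

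CCN proteins are secreted matricellular proteins, which sit in the matrix and bind integrins, heparan sulphate proteoglycans and LDL-receptor-related proteins. YAP and TAZ carry signals from cell shape, matrix stiffness and serum to the nucleus, where they act through TEAD transcription factors. The Hippo kinases, LATS1 and LATS2 among them, phosphorylate YAP and TAZ and keep them out of the nucleus. In lung fibroblasts, CCN2 (connective tissue growth factor) and YAP-TAZ activity are known for their part in matrix deposition. DKK1 is a secreted inhibitor of canonical Wnt signalling that binds the co-receptors LRP5 and LRP6, and Ccn4 was first described as a gene induced by Wnt1.

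The promoters of the members are shown because TEAD factors are the DNA-binding partners of YAP and TAZ. RefSeq promoter windows (build GRCm38.p6, from 250 bases before the start site to 50 bases from it on) matched 6 of the 10 members by symbol, with 8 windows. Ccn2, Ccn3, Ccn4 and Ccn5 had no entry under these symbols, and other names were not searched. The letters GGAATG, a core of the TEAD motif, were searched on both strands, CATTCC being the same letters on the opposite strand. At least 1 match was found in a window of each of these 6 genes, and in 7 of the 8 windows. Among all 32851 RefSeq windows of the same length, 14.7% hold a match and 1.36% hold more than 1. A match is a description of the sequence, and several members are in the group because they are known TEAD targets. The windows below hold 40 bases around each match, read 5′ to 3′ along the gene, with the match in capitals.
Ccn1, chr3:145650066-145650105, minus strand: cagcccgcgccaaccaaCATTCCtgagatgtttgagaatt
Ankrd1, far match, chr19:36120032-36120071, minus strand: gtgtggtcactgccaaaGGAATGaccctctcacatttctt
Ankrd1, near match, chr19:36119945-36119984, minus strand: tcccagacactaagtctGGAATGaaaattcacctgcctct
Amotl2, chr9:102717722-102717761, plus strand: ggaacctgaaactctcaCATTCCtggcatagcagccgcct
Lats2, chr14:57746097-57746136, minus strand: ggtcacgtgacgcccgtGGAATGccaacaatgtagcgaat
Yap1, chr9:8004715-8004754, minus strand: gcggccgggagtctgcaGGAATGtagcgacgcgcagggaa
Wwtr1, chr3:57576024-57576063, minus strand: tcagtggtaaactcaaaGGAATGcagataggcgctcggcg

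Counted from the start site, the match begins at -103 in Ccn1, at -210 and -123 in Ankrd1, at -65 in Amotl2 and at -141 in Yap1. In Lats2 it begins at 5, just inside the transcribed part, and the window of the other Lats2 start site has none. In Wwtr1 both start sites share the match, at -136 from one and -170 from the other. Ankrd1 is the only member with 2 matches in a window, and the 250 bases before its start site (chr19:36119845-36120094, minus strand) are given whole for that reason.
Ankrd1 promoter: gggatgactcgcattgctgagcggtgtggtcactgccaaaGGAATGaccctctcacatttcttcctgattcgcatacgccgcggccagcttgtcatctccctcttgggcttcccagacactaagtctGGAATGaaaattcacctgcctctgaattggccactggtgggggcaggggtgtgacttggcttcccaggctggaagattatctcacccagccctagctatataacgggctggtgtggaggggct
The CArG box, bound by serum response factor, had no match in the 8 windows and a match in 1.63% of all windows.

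The 6 libraries held 22565917 to 34727102 expected counts, and replicates of a group differed beyond sampling noise (chi-square per degree of freedom of 5.19 to 8.14 over the 6 pairs within groups). The 8 fibroblast markers checked against the label summed to 12262 to 14703 CPM (counts scaled to a common library total) in the 6 libraries. Among them Pdgfra and Dcn rose with the block (0.27 and 0.62) and Col1a1, Col1a2, Thy1 and Vim fell (-0.10 to -0.13), while none was called unpaired. Markers of other lung cells were uneven between libraries, and most were under 40 CPM, apart from Lyz2 (340 to 722 CPM), Myh11 (273 to 338 CPM) and Des (44.2 to 105 CPM). Replicate 3 of both groups stood apart: its summed levels were 64.5 CPM in control and 70.6 CPM with DKK1 for 5 epithelial genes, against 20.8 to 25.4 CPM in the other libraries. The corresponding levels were 62.0 and 62.3 against 18.9 to 26.4 CPM for 5 endothelial genes, 774 and 792 against 384 to 454 CPM for 5 leukocyte genes, and 28.1 and 31.6 against 9.73 to 10.9 CPM for 4 mesothelial genes. Of the leukocyte genes, Adgre1 rose in the edgeR fit with the block (0.54, adjusted p = 0.00179) and Csf1r fell (-0.25, adjusted p = 0.0364). Ptprc, Cd68 and Lyz2 were not called. The epithelial marker Scgb1a1 was listed at 0 in 3 libraries, and no other gene of these 4 lists was at 0 in any. The 5 smooth muscle and pericyte markers summed to 418 to 463 CPM in control and 340 to 366 CPM with DKK1, without overlap. Myh11, the smooth muscle myosin gene, made up most of this sum and fell in the unpaired edgeR fit too (-0.30, adjusted p = 0.00387). Des and Cspg4 fell with the block only, and Rgs5 and Actc1 were not called. The part of these other cells in the results below was not tested. In bulk RNA, fewer cells of a type and less RNA per cell cannot be told apart.

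All 10 genes passed the filter on low counts, and 9 of them had a mean of at least 100 CPM. Levels between genes were compared per kilobase of mean annotated transcript length, in control libraries (mean ± SD, n = 3). Ccn2 stood first at 1232 ± 89.6 CPM per kilobase, then Ccn1 at 472 ± 29.5 and Amotl2 at 386 ± 18.8. Ccn4 (211 ± 31.0), Lats2 (199.9 ± 10.9), Ankrd1 (179 ± 26.4) and Ccn5 (163 ± 24.4) followed, and neighbours among these 4 did not differ beyond their spread. Yap1 was found at 126 ± 2.90 CPM per kilobase, Wwtr1 at 41.5 ± 1.78 and Ccn3 at 1.30 ± 0.316. With the longest transcript as the length, Ankrd1 came before Amotl2, and Ccn5 came before Ccn4. Ccn2, Ccn1, Yap1, Wwtr1 and Ccn3 kept their ranks, but the gaps changed: Yap1 came to 48.8 and Wwtr1 to 40.8 CPM per kilobase, Amotl2 to 164, Ccn4 to 87.7 and Lats2 to 77.4. Ccn6, the remaining CCN gene, had at most 2 counts in any library, under the floor of 3 counts read here as signal (0.0864 to 0.133 CPM).

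**Figure D1:**
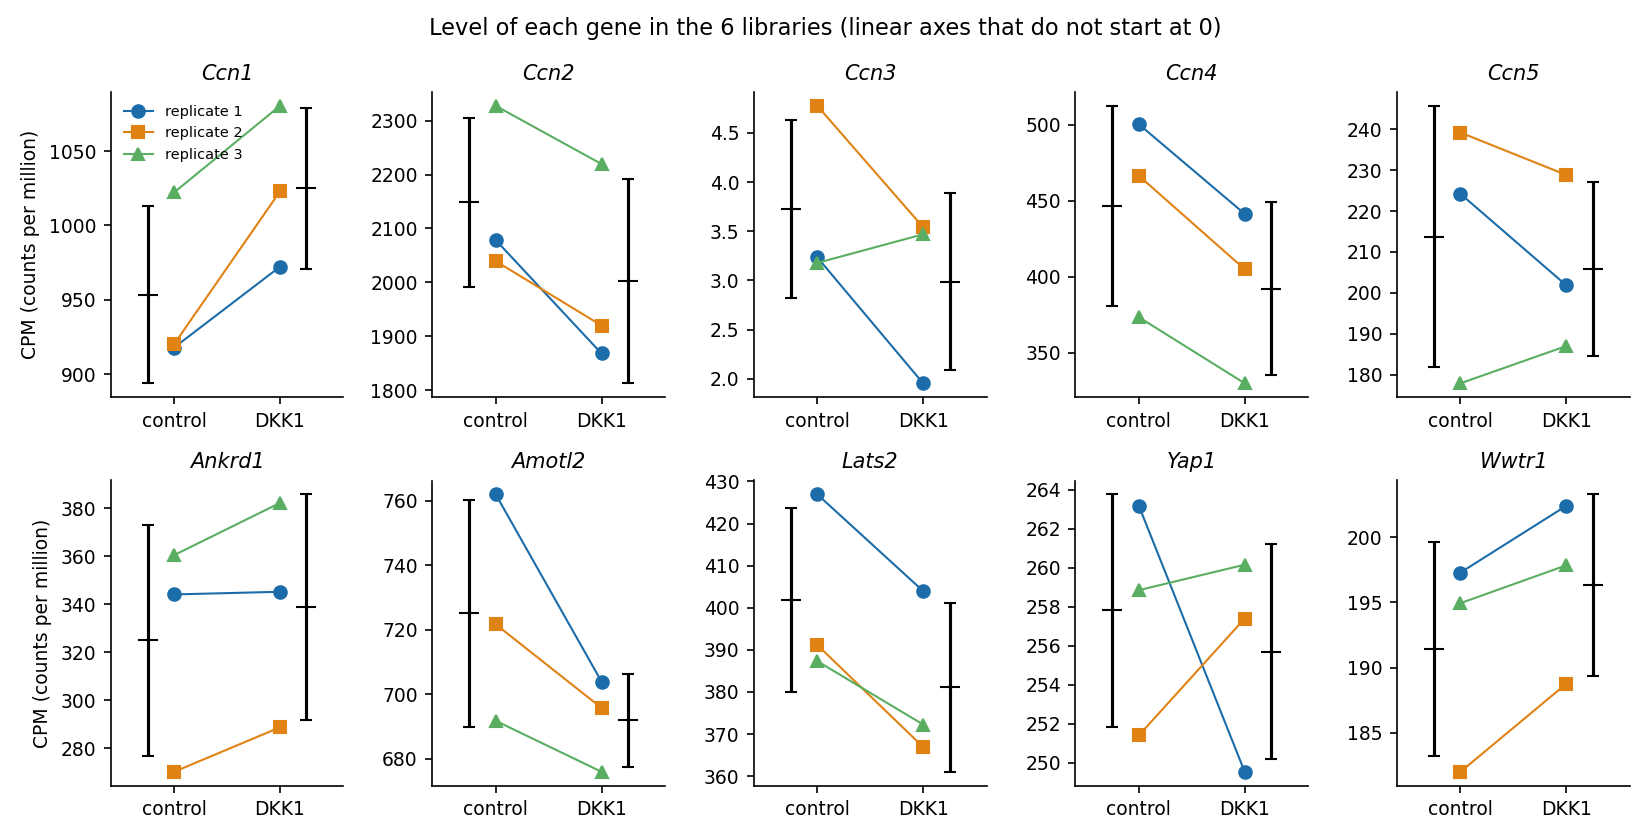
CPM of the 10 genes in each library, control on the left and DKK1 on the right of each panel; lines join samples with the same replicate number, and black bars give the mean ± SD (n = 3). The groups overlap in all 10 panels, while the lines of Ccn2, Ccn4, Amotl2 and Lats2 all go down and those of Ccn1, Ankrd1 and Wwtr1 all go up.

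With the samples treated as unpaired, 0 of the 10 genes were called by edgeR's quasi-likelihood test (Benjamini-Hochberg adjusted p under 0.05, taken over every gene tested), against 0.895% of the 14635 tested genes. None had an unadjusted p under 0.05, against 10.6% of all tested genes. DESeq2 called 0 as well, against 2.04% of the genes it gave an adjusted p, and limma-voom called 0. The control and DKK1 values overlapped in all 10 genes, whereas the groups did not overlap in 16.5% of all tested genes. Control and DKK1 samples that share a number deviated together. A model with that number as a block compares each DKK1 sample with the control of the same number. What a number stands for is not given in the sources used here, so this pairing is assumed. With this replicate block, 5 of the 10 genes were called: Ccn1 rose, and Ccn2, Ccn4, Amotl2 and Lats2 fell. The block called 9.42% of all tested genes and 24.1% of the 2169 genes that averaged 100 CPM or more, to which all 5 belong. CPM moved the same way in all 3 pairs for 7 members, 4 lower and 3 higher, against 41.8% of all tested genes. The median log2 fold change of the 10 genes was -0.06 with the block, beside -0.0006 over all tested genes.

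**Figure D2:**
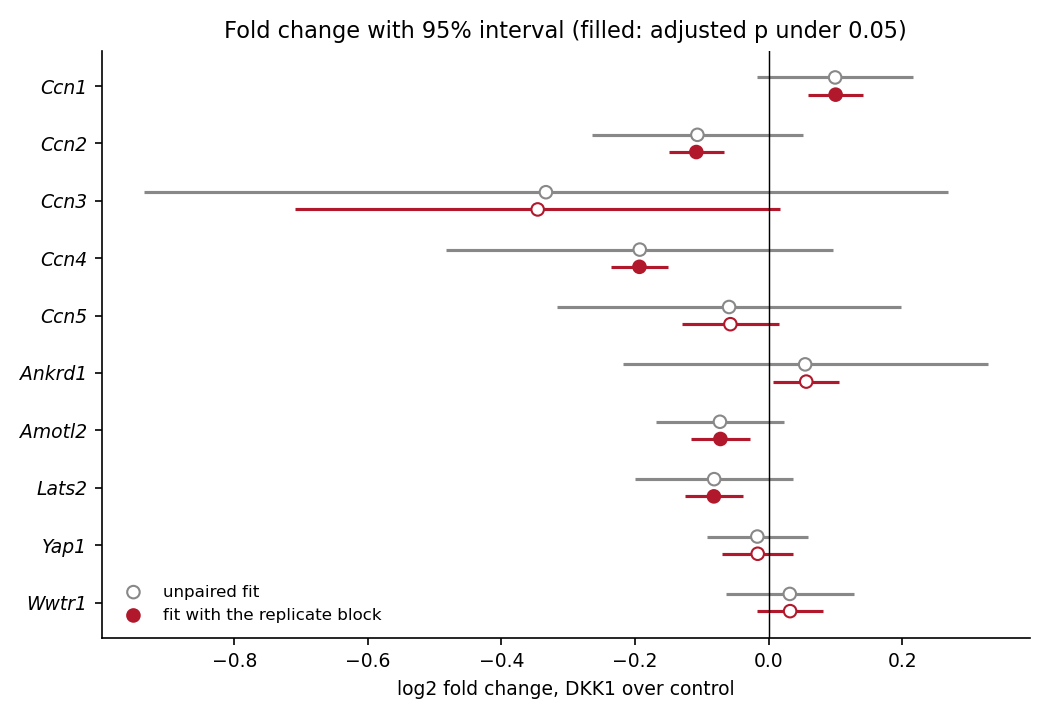
Log2 fold change of DKK1 over control for each gene, with its 95% interval, in the unpaired fit (grey) and in the fit with the replicate block (red); filled points have an adjusted p under 0.05. Every grey interval crosses 0, and the red intervals of Ccn1, Ccn2, Ccn4, Amotl2 and Lats2 are filled and lie clear of it, within 0.24 of 0.

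Ccn1 and Ccn2 encode the CCN proteins most often used as readouts of YAP-TAZ activity. Ccn1 (ENSMUSG00000028195, chr3:145646976-145649981, minus strand) encodes CYR61, an integrin ligand. It measured 918, 920 and 1022 CPM in control replicates 1 to 3 and 972, 1023 and 1080 CPM with DKK1. Each DKK1 library was higher than the control of its number, although control replicate 3 lay within the range of the DKK1 libraries. The rise was a log2 fold change of 0.10 (SE 0.02, 95% interval 0.06 to 0.14, adjusted p = 0.00418 with the block and 0.564 without), or 7.21%. Without pair 2, which had the largest ratio, the call was lost (0.08, adjusted p = 0.143).

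Ccn2 (ENSMUSG00000019997, chr10:24595442-24598683, plus strand) went the other way. Its control libraries held 2078, 2039 and 2327 CPM and the DKK1 libraries 1868, 1920 and 2219 CPM. Replicate 3 was the highest library in both groups, and each DKK1 library was under the control of its number. The log2 fold change was -0.11 (SE 0.02, 95% interval -0.15 to -0.07, adjusted p = 0.00211 with the block and 0.672 without), and the level dropped by 7.23%. Ccn2 expected counts were not whole in any library. Its exons overlap those of Gm15270, a noncoding gene read from the other strand. Whether counting used strand is not given in the sources used here, so reads of the overlap may belong to either gene. The 5 CCN members together made up 3670 to 3904 CPM in control and 3485 to 3820 CPM with DKK1, and Ccn2 was 53.6% to 59.6% of that sum.

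The opposite course of Ccn1 and Ccn2 showed most plainly as a ratio within each library, which does not depend on how libraries are scaled. Ccn1 counts per Ccn2 count came to 0.442, 0.451 and 0.439 in control and to 0.520, 0.533 and 0.487 with DKK1. The 3 control libraries lay close together and below every DKK1 library. The ratio was 1.16 times higher with DKK1 (p = 0.1 in a two-sided exact permutation test, where 3 samples against 3 allow no smaller value). It was singled out after its values were seen, as 1 of 45 ratios between members that were examined, and the only one whose groups did not overlap (2.22% of 45; adjusted p = 0.771 over the 45, by the Benjamini-Hochberg method on the exact p-values). For comparison, the ratio of a gene to Ccn2 did not overlap between the groups for 11.5% of all other tested genes. A separation of this kind was thus not rare. Neither the overlap nor the permutation test uses the replicate number. Other member ratios also moved the same way in all 3 pairs. Ccn1 to Ccn4 went from 1.83, 1.97 and 2.74 in control to 2.20, 2.53 and 3.27 with DKK1.

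**Figure D3:**
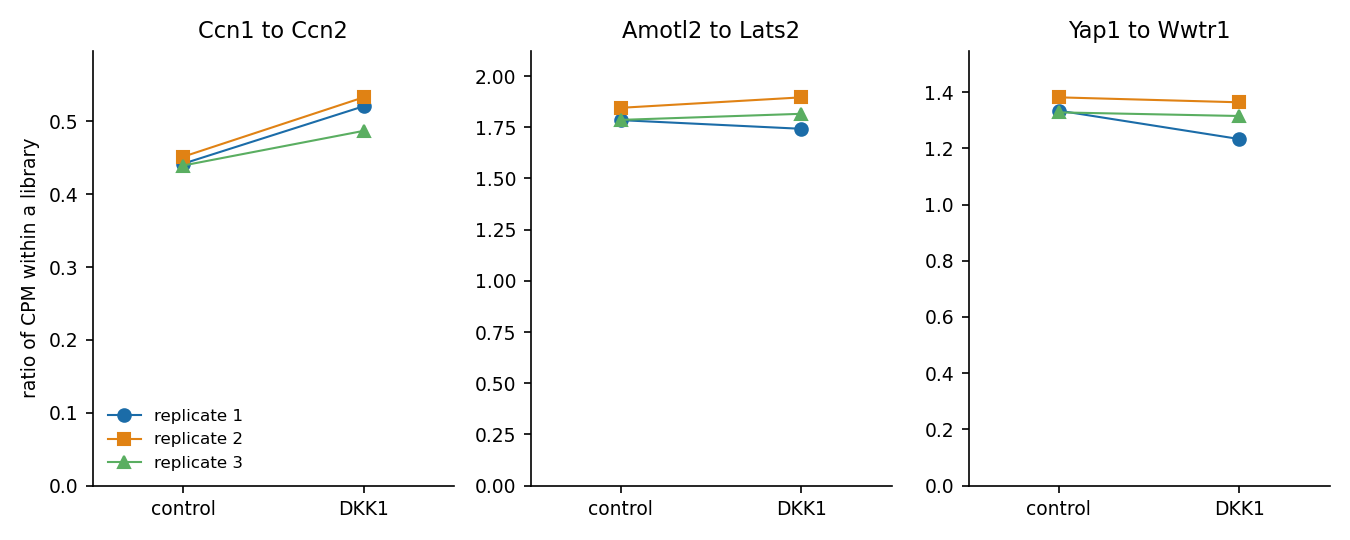
Ratio of the CPM of 2 genes within each library, on axes that start at 0; lines join samples with the same replicate number. Ccn1 to Ccn2 goes from 0.439 to 0.451 in control up to 0.487 to 0.533 with DKK1, while the groups overlap for Amotl2 to Lats2 and for Yap1 to Wwtr1.

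Ccn4 had the largest change among the called members. Ccn4 (ENSMUSG00000005124, chr15:66891320-66923201, plus strand) encodes WISP1. Control libraries measured 500.4, 466 and 373 CPM and DKK1 libraries 441, 405 and 330.0 CPM. Replicate 3 was the lowest in both groups, and control replicate 3 lay below DKK1 replicates 1 and 2. The pairs were close to each other, with log2 ratios of -0.18, -0.20 and -0.18. With the block Ccn4 fell by a log2 fold change of -0.19 (SE 0.02, 95% interval -0.24 to -0.15, adjusted p = 2.42e-05, against 0.677 without the block), a drop of 12.5%. It was also called without each pair in turn, the largest adjusted p being 0.00454.

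Ccn5 (ENSMUSG00000027656, chr2:163820861-163833146, plus strand) encodes WISP2, a CCN protein that lacks the C-terminal module of the others. It measured 224, 239 and 178 CPM in control and 202, 229 and 187 CPM with DKK1. It was lower with DKK1 in pairs 1 and 2 and higher in pair 3. No call was made at its log2 fold change of -0.06 (95% interval -0.13 to 0.02 and adjusted p = 0.373 with the block, 0.919 without). With the block it was -0.11 without pair 3 and called (adjusted p = 0.0426), and -0.008 without pair 1 (adjusted p = 0.943).

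Ccn3 (ENSMUSG00000037362, chr15:54745702-54754039, plus strand) encodes NOV and was the weakest member. From 56 to 135 counts per library gave 3.23, 4.78 and 3.18 CPM in control and 1.95, 3.54 and 3.47 CPM with DKK1. The groups overlapped and the pairs did not go one way. The log2 fold change of -0.35 with the block had a 95% interval from -0.71 to 0.02 (adjusted p = 0.267), so neither a sizeable fall nor a level that stayed the same could be told at this depth. It ranged from -0.20 without pair 1 to -0.55 without pair 3 (adjusted p = 0.646 and 0.0915), and in the unpaired fit from -0.10 without DKK1 replicate 1 or control replicate 2 to -0.49 without DKK1 replicate 2.

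Of the 3 YAP-TAZ targets outside the CCN family, Amotl2 and Lats2 fell with the block and Ankrd1 was not called. Whether Ankrd1 differed from them in its response was not tested with the pairing. Ankrd1 (ENSMUSG00000024803, chr19:36111961-36120099, minus strand) encodes a muscle ankyrin repeat protein of the sarcomere and nucleus. It measured 344, 270.3 and 361 CPM in control and 345, 289 and 382 CPM with DKK1. Replicate 2 was the low library in both groups, and the pair differences were small beside that gap. The log2 fold change was 0.06 (95% interval 0.01 to 0.11, unadjusted p = 0.0290 and adjusted p = 0.17 with edgeR and the block, adjusted p = 0.935 without). With the block it was 0.09 without pair 1 and called (adjusted p = 0.0212), 0.04 without pair 2 or pair 3, and 0.03 with the GC and length trend removed (adjusted p = 0.484).

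Amotl2 (ENSMUSG00000032531, chr9:102716672-102733418, plus strand) encodes an angiomotin-like scaffold that binds YAP and holds it in the cytoplasm, and is itself a YAP target. Control libraries held 762, 722 and 692 CPM and DKK1 libraries 704, 696 and 676 CPM. Each DKK1 library was lower than the control of its number, and only control replicate 3 fell within the range of the DKK1 libraries. The fall with the block was -0.07 on the log2 scale (SE 0.02, adjusted p = 0.0404, against 0.627 without). The call was lost when the trend of each library against GC content and transcript length was removed in the same blocked fit (-0.05, adjusted p = 0.208), without pair 1 (-0.05, adjusted p = 0.209) and without pair 2, where the fold change was about as large as with all pairs (-0.08, adjusted p = 0.213).

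Lats2 (ENSMUSG00000021959, chr14:57689662-57758388, minus strand) encodes the Hippo kinase that YAP and TAZ induce as feedback on themselves. It measured 427, 391 and 387 CPM in control and 404, 367 and 372 CPM with DKK1. Replicate 1 was highest in both groups, and each DKK1 library was below the control of its number. The log2 fold change was -0.08 (SE 0.02, 95% interval -0.12 to -0.04, adjusted p = 0.0187 with the block and 0.662 without). Without pair 2 the call was lost (-0.07, adjusted p = 0.23). Lats2 shares exons with Gm49361, a gene model on the same strand, and its expected counts were whole in all 6 libraries. Lats1, its paralogue, stood at -0.004 (adjusted p = 0.972 with the block).

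The coactivator genes gave no call in either fit. Yap1 (ENSMUSG00000053110, chr9:7931999-8004596, minus strand) was the steadiest member, at 263, 251 and 259 CPM in control and 249.5, 257 and 260.2 CPM with DKK1. It was lower in pair 1 and higher in pairs 2 and 3. Its log2 fold change of -0.02 had a 95% interval from -0.07 to 0.04 with the block (adjusted p = 0.782, and 0.922 without). Yap1 exons overlap those of Gm20416, a noncoding gene on the other strand, and its expected counts were whole in 4 of the 6 libraries. Wwtr1 (ENSMUSG00000027803, chr3:57455649-57575910, minus strand) measured 197, 182 and 195 CPM in control and 202, 189 and 198 CPM with DKK1. It was higher in each pair, by a log2 fold change of 0.03 (95% interval -0.02 to 0.08, adjusted p = 0.474 with the block and 0.866 without). These transcript levels say nothing of where the YAP and TAZ proteins were in the cell.

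For several members the difference between replicate numbers was larger than that with DKK1. Replicate 3 was set against the mean of replicates 1 and 2 in each group. Ccn4 was lower there by log2 ratios of -0.37 in control and -0.36 with DKK1, and Ccn5 by -0.38 and -0.20. Ankrd1 was higher by 0.23 and 0.27, Ccn2 by 0.18 and 0.23 and Ccn1 by 0.15 and 0.12. In these 5 genes the sign was the same in both groups, and the gap was larger than the fold change with DKK1 in either group. Ccn3 had opposite signs (-0.33 and 0.34). The gaps of Amotl2 (-0.10 and -0.05) and Lats2 (-0.08 and -0.05) were near the size of their log2 fold changes with DKK1 and the block (-0.07 and -0.08). Yap1 (0.01 and 0.04) and Wwtr1 (0.04 and 0.02) were nearly level. Replicate 3 is also the sample with more epithelial, endothelial, leukocyte and mesothelial transcripts, and whether these shift the members was not tested. The fall of Ccn4 was about as large in pair 3 as in the other pairs, while that of Ccn2 was smallest there (-0.07, against -0.15 and -0.09). Pair 3 also had the smallest change of Amotl2 (-0.033, against -0.114 and -0.053) and Lats2 (-0.057, against -0.080 and -0.092). For Ccn1 it was 0.080, against 0.083 and 0.153.

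**Figure D4:**
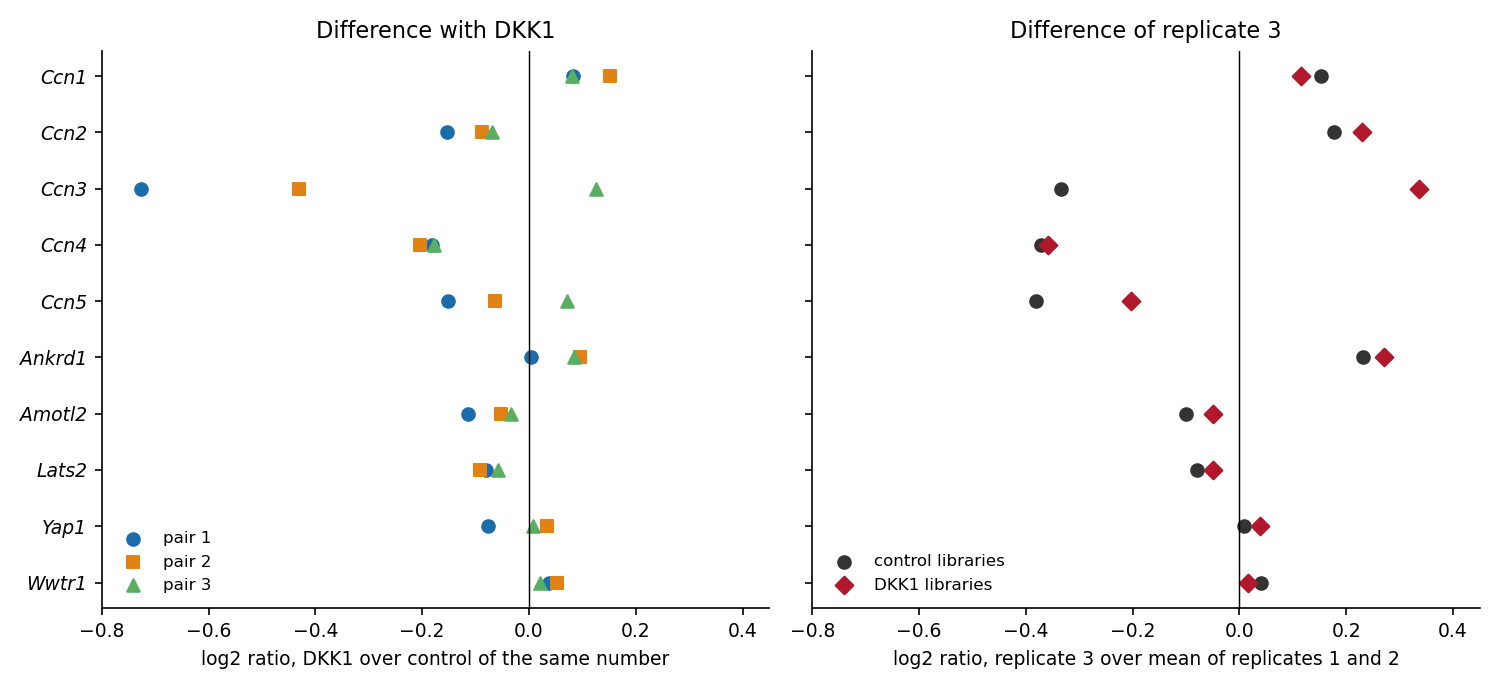
Left, log2 ratio of DKK1 over control in each of the 3 pairs of samples with the same number; right, log2 ratio of replicate 3 over the mean of replicates 1 and 2, in control (black) and DKK1 (red) libraries. The 3 pairs of Ccn4 lie between -0.20 and -0.18, and its replicate 3 lies further from 0, at -0.37 and -0.36.

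Other genes of the pathway were read from 4 companion lists, none of which had a call in the unpaired edgeR fit. The lists were chosen with earlier results of these data known, so their shares are descriptions and not a test. Their counts stand beside the shares over all tested genes: 9.42% with the block (24.1% at 100 CPM or more), 10.6% at an unadjusted p under 0.05 and 2.04% for DESeq2. Of 20 further YAP-TAZ targets, 7 had an unadjusted p under 0.05 there, and DESeq2 called 3 (Asap1, Ccdc80 and Nt5e) and limma-voom 0. With the block 2 rose and 6 fell, 40% of the list and 6 of its 11 genes of at least 100 CPM, and the median log2 fold change of the list was -0.08. Nt5e, which encodes the ectonucleotidase CD73, measured 25.1 ± 2.04 CPM in control and 35.9 ± 4.45 CPM with DKK1 (SD, n = 3), and rose by 0.52 on the log2 scale (adjusted p = 2.42e-05). F3, which encodes tissue factor, rose from 475, 448 and 519 CPM to 530.2, 518 and 575 CPM (0.17, adjusted p = 9.76e-05). Ccdc80, a secreted matrix protein gene, fell from 318 ± 26.9 to 267 ± 22.6 CPM (-0.26, adjusted p = 7.47e-06), and Asap1, an ARF GTPase-activating protein gene, from 258 ± 6.78 to 229.6 ± 8.51 CPM (-0.18). Dlc1, Tgfb2, Axl and Crim1 fell by log2 fold changes of -0.12, -0.21, -0.07 and -0.08. The targets thus went both ways, as Ccn1 and Ccn2 did. Without pair 2 only F3, Nt5e, Asap1 and Ccdc80 were called, and Crim1 was not called with the GC and length trend removed.

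Of the 25 genes of the Hippo pathway and of the nuclear partners of YAP and TAZ, 5 had an unadjusted p under 0.05 in the unpaired edgeR fit, and DESeq2 and limma-voom called 0. With the block 2 rose and 3 fell, with a median of -0.02. These 5 are 20% of the list, and 3 of its 11 genes of at least 100 CPM were called, near the 24.1% of all such genes. Tead1, the most abundant TEAD gene by CPM, measured 520, 546 and 545 CPM in control and 505, 506 and 499 CPM with DKK1. The groups did not overlap, and the fall was -0.10 on the log2 scale (SE 0.02, adjusted p = 0.00868). Tead3 fell from 84.5 ± 3.33 to 77.1 ± 4.54 CPM (-0.13, adjusted p = 0.0172), also without overlap. Tead2 stood at 0.02 (adjusted p = 0.785) and Tead4 at -0.13 (adjusted p = 0.534). The kinase genes Map4k4 and Stk4 (MST1), both upstream of the LATS kinases, rose by 0.12 (adjusted p = 0.0011) and 0.14 (adjusted p = 0.00943). Wwc2, a paralogue of the scaffold KIBRA, fell by -0.10 (adjusted p = 0.0141). Only Map4k4 was called in this list whichever pair was left out. Tead1 lost its call without pair 2 and without pair 3, as did Tead3, Wwc2 without pair 1 and without pair 2, and Stk4 without pair 2. With the GC and length trend removed Wwc2 and Tead3 were not called.

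Serum response factor (SRF) and its MRTF cofactors share many targets with YAP and TAZ, Ccn1 and Ccn2 among them. Of 14 genes of this list, chosen with earlier results of these data known, 7 fell and 0 rose with the block. Among all tested genes 9.42% were called in either direction. The 7 were among the 13 genes of the list with at least 100 CPM, where 24.1% of all genes were called. The median log2 fold change was -0.10. In the unpaired edgeR fit 7 had an unadjusted p under 0.05, DESeq2 called 4 (Vcl, Flna, Cnn1 and Actg2) and limma-voom 0. The contractile genes Actg2, Acta2, Myl9, Tagln and Cnn1 fell by log2 fold changes of -0.27, -0.21, -0.20, -0.19 and -0.17. The actin crosslinker gene Flna and the focal adhesion gene Vcl fell by -0.10 and -0.14. Vcl lost its call without pair 2, and Fhl2 gained one without pair 3 and with the GC and length trend removed. Srf itself was at -0.01 (adjusted p = 0.881), and Mrtfa and Mrtfb at -0.07 and -0.06 (adjusted p = 0.0843 and 0.464). The summed smooth muscle and pericyte markers, given above, were lower with DKK1 as well, and their part in this list was not tested. In this list every gene that was called went down, as Ccn2 did, while Ccn1 rose.

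Receptors for CCN proteins were the last list. Of 10 genes, Sdc4, which encodes the heparan sulphate proteoglycan syndecan-4, was the only one called with the block. This 1 of 10 is near the 9.42% called among all tested genes. It rose from 145, 167 and 145 CPM to 175, 189 and 172 CPM, without overlap between the groups (log2 fold change 0.23, SE 0.03, adjusted p = 8.04e-05; 0.238 without the block). It was the only one with an unadjusted p under 0.05 in the unpaired edgeR fit, and DESeq2 and limma-voom called 0. Lrp6, which binds both DKK1 and CCN2, was at -0.04 (adjusted p = 0.378) and Lrp1 at -0.06 (adjusted p = 0.255). Sdc4 was called whichever pair was left out, while Lrp1 was called only without pair 1, Itga6 only without pair 3 and Itgb1 only with the GC and length trend removed. The median of the list was -0.03. Ptpn14 and Ajuba stand in both the target list and the Hippo list, and neither was called.

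**Figure D5:**
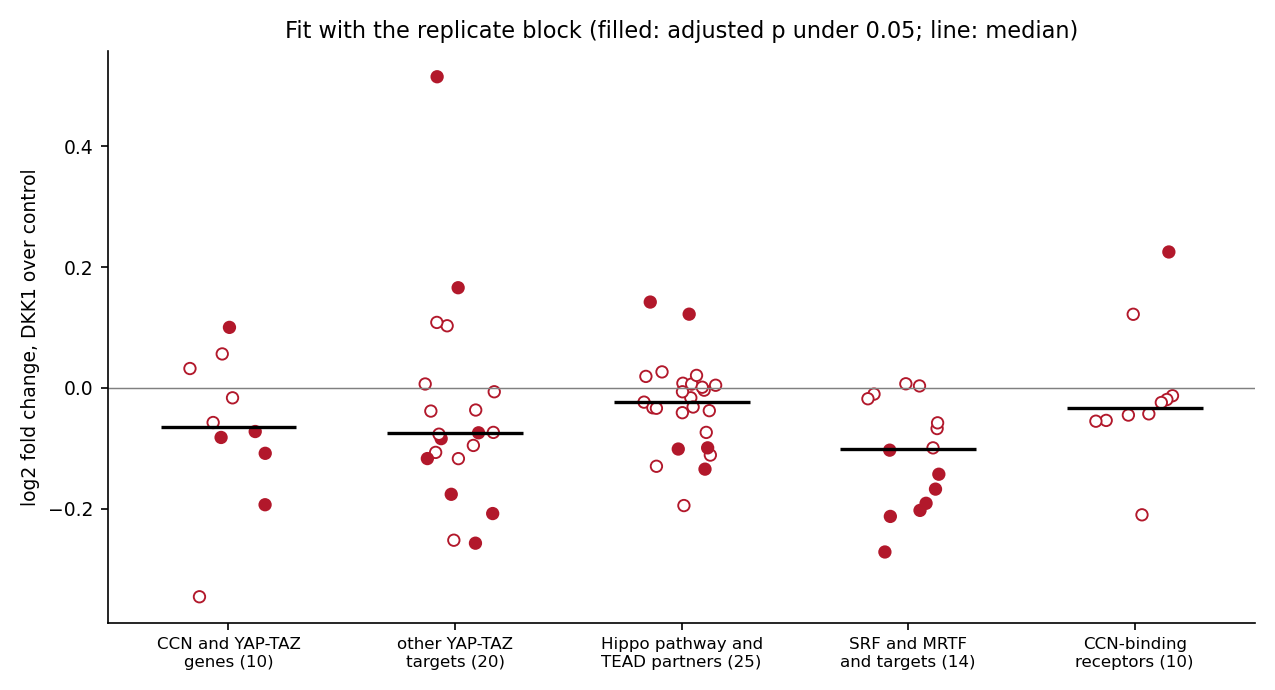
Log2 fold change of DKK1 over control with the replicate block, 1 point per gene, for the 10 genes and the 4 companion lists (number of genes in brackets); filled points have an adjusted p under 0.05 and the line is the median. The medians lie between -0.10 and -0.02, and filled points occur on both sides of 0 in each list except that of SRF and MRTF and, with its single call, that of the receptors.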

How the data were processed

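RNA from 3 control and 3 DKK1-treated fibroblast samples was sequenced. The authors deposited 1 table of RSEM expected counts per gene, unscaled, going by its name and values. STAR, RSEM, edgeR 4.2.1 and the build GRCm38 (mm10) are named in the submitters' processing notes; strandedness, annotation and filters are not given in the sources used here. Symbols were found for 98.8% of the 45706 identifiers. Coordinates, lengths and overlaps came from GENCODE M21 (GRCm38).

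Expected counts were rounded and tested across all genes in R 4.3.3 with edgeR 4.0.16 (filterByExpr with a minimum count of 10, TMM, quasi-likelihood test of group, two-sided). Benjamini-Hochberg adjustment covered the 14635 genes kept. SE is the absolute log2 fold change over the square root of F. CPM uses the whole library total. Scripts were tested on simulated data with a block effect built in and planted fold changes far larger than those of the called members. That test does not cover changes of the size seen here, or a block that is wrongly assumed. A second fit added the replicate number in the sample titles as a block. What a number stands for is not given in the sources used here. Same-numbered samples deviated together from their group means (r of 0.335 to 0.498 across genes, against -0.332 to 0.0666 for other pairings). Genes are not independent replicates. Deviations from a group mean cancel out within the group, so a positive r for same-numbered samples pulls the other values down. These r come from the same counts that were tested. The floor of 3 counts (0.0864 to 0.133 CPM) covers counting error only; the biological coefficient of variation was 6.99% unpaired and 2.30% with the block.

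Named were all 10 members, Ccn6, in the companion lists genes called in either fit (at most 8 a list), and genes most like a called member over the 6 libraries. List genes named as not called were chosen after their values were seen. Members and lists were chosen with earlier results of these data known. Alternatives were DESeq2 size factors, library totals, other filters, DESeq2 1.42.0, limma-voom (limma 3.58.1), unrounded counts, equal depth, removal of the GC and length trend, and each sample left out. Leaving out each pair with the block, and the background at 100 CPM, were added after seeing the data.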

Additional observations from a re-analysis of the deposited data

How the results depend on the processing

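The unpaired fit called 131 genes (102 higher, 29 lower, 77.9% higher). Larger counts came without a low-count filter (329), with DESeq2 (289) and with the replicate block (1379, of which 52.6% higher); leaving out 1 library gave 36 to 139, with 36 without control replicate 2, 51 without control replicate 1, 44 without DKK1 replicate 1 and 57 without DKK1 replicate 2. The other 7 unpaired fits gave 113 to 135. None of the 10 genes was called in any unpaired alternative, against 5 with the replicate block. Removing the GC and length trend as well left 4 of them and 1315 genes in all. Without pair 2 the block called 612 genes and 2 of the 10, Ccn2 (adjusted p = 0.0499) and Ccn4, without pair 1 it called 1312 genes and 5 of the 10, and without pair 3 it called 1059 and 6. The cause was not tested.

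Signs changed for 4 genes, none of them called in either fit of all samples. Leaving out 1 library gave -0.181 to 0.0324 for Ccn5, -0.0612 to 0.154 for Ankrd1 and -0.00176 to 0.0558 for Wwtr1, and the block without pair 1 gave 0.0163 for Yap1. Ccn1, Ccn2, Ccn4, Amotl2 and Lats2 kept their sign in all 20 alternatives run, but leaving out 1 library from the unpaired fit gave 0.0636 (without DKK1 replicate 3) to 0.145 (without control replicate 3) for Ccn1, -0.184 (DKK1 3) to -0.0525 (control 3) for Ccn2, -0.313 (control 3) to -0.0812 (DKK1 3) for Ccn4, -0.112 (control 3) to -0.0353 (control 1) for Amotl2 and -0.127 (DKK1 1) to -0.0353 (control 1) for Lats2. Removing the GC and length trend brought the median of the target list to -0.04 and that of the receptor list to -0.01. Leaving out 1 library moved the median of the Hippo list between -0.0401 (without control replicate 3) and -0.0128 (without control replicate 1). The median of the target list ran from -0.103 (without control replicate 2) to -0.0520 (without DKK1 replicate 2). For the SRF and MRTF list it ran from -0.121 (without DKK1 replicate 3) to -0.0961 (without DKK1 replicate 2). The median of the receptor list came to -0.0177 without DKK1 replicate 3 and -0.0188 without control replicate 2. Nt5e and Actg2 were called in the unpaired edgeR fit without a low-count filter and without DKK1 replicate 3, and Actg2 also with the GC and length trend removed. Depth limits Ccn3 most, with 56 to 135 counts per library.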

Other observations

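For each member called with the block, the genes most like it were taken from the 9223 tested genes averaging 10 CPM or more, by Pearson's r of log2 CPM over the 6 libraries. These values describe the libraries, which share replicate structure and depth, and carry no test. The genes were picked for likeness to a called member in the same libraries, so their own calls are not independent of that pick. Ccn2 was most like Fscn1, which encodes the actin-bundling protein fascin (r = 0.993). Fscn1 measured 929.9, 916 and 1025 CPM in control and 833, 856 and 966 CPM with DKK1, and fell with the block (log2 fold change -0.12, adjusted p = 0.00126). Next came Chm (r = 0.993). Ccn4 was most like Itsn1 (0.995) and Afap1 (0.992), Amotl2 like Speg (0.996) and Eef2 (0.992), Lats2 like Synj1 (0.996) and Ncor1 (0.995), and Ccn1 like Nln (0.995) and Lrrc4c (0.993). Itsn1 (adjusted p = 0.0362) and Speg (0.0291) were also called with the block by edgeR, and the other 7 of these 10 genes were not (adjusted p from 0.0592 for Lrrc4c to 0.599 for Chm).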
